A study of Homo sapiens with 12 samples.

Results

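The genes described here are 37 neuronal genes that the repressor REST is known to hold down outside the nervous system. They were chosen by name for this known regulation, by a rule that uses no measured value, and each was read from the array row annotated to that gene symbol alone, the brightest such row where a gene had several. Of the 37 genes, 35 had a row of their own, out of 14232 genes with such a row and 22011 rows in all. CPLX2 was the 1 gene with a second row. TUBB3, the neuronal beta-tubulin, shares row 3674504 with other genes and cannot be read alone, and no row in the annotation used here is listed for UNC13A, a vesicle-priming factor.

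The RNA came from HEK293, a long-established line of human embryonic kidney origin, and was read on 12 one-colour arrays, 3 biological replicates for each of 4 groups. Lipofection followed plating by 24 hours, and 48 hours later living cells with detectable GFP were sorted for 20 minutes per sample, so every group, the control included, was transfected, carried GFP and was sorted. The control group received nuclear GFP alone in the pcDNA5/TO vector. The full-length group received MED12 with an engineered Kozak sequence and an N-terminal nuclear GFP tag in that vector, and the PQL/Opa-deleted group received the same construct without the C-terminal PQL and Opa domains. The shRNA group received a hairpin against MED12, driven by the H1 promoter in peGFP-C1, a different vector from that of the control, so hairpin and vector cannot be told apart. The endogenous MED12 gene was still present in all groups, and expression was transient.

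REST is a zinc-finger protein that binds the RE1 element near neuronal genes and recruits corepressors: SIN3 proteins with histone deacetylases, the CoREST complex with the demethylase KDM1A, and the histone H3 lysine 9 methyltransferases G9a (EHMT2) and GLP (EHMT1). MED12 belongs to the kinase module of the Mediator complex and is known as a link between REST and G9a, and the loss of this link has been described to release REST target genes in non-neuronal cells. The comparisons below ask whether the transcripts of such genes differed when MED12 was raised, raised in a shortened form, or targeted by RNA interference. HEK293 cells are known to carry some neuronal transcripts, neurofilaments among them.

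The RE1 element is the sequence feature that ties these genes to REST, so the promoters were searched for it in the RefSeq promoter table (build GRCh38.p14, 250 bases before to 50 after a start). The motif was TTCAGCACC, then any 2 bases, then GGACAGCGC, on both strands, with at most 4 mismatches over the 18 fixed bases. The table held promoters of 24 of the 37 genes, and 3 of the 24 had a match, against 224 of all 27305 genes (0.82%). These 3 are shown because their RE1-like sequence lies within this window, with the bases that match the motif in capitals.
VGF: TTCAGCACgctGGACAGCGC
SYN1: TTCAGCACCgcGGACAGtGC
CELSR3: TTCAGCACCagGagCAaCGC
The match of VGF, at chr7:101165559-101165578 on the plus strand, had 1 mismatch and spans the start of the gene, which lies on the minus strand, from base -9 to base 11. That of SYN1, at chrX:47620071-47620090 on the minus strand, also had 1 mismatch and lies from base -233 to base -214. That of CELSR3, at chr3:48663015-48663034 on the minus strand, had 3 mismatches and lies from base -148 to base -129. A single mismatch or none was found in 9 of the 35116 promoters of the table (0.0256%). A match is a description of the letters, and many RE1 elements lie outside a window of this length.

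The measured values are log2 intensities, and comparisons are log2 fold changes from limma, each with its standard error (SE). A row was called where its Benjamini-Hochberg adjusted p over all 22011 rows was under 0.05. MED12 itself was 4.03, 4.56 and 4.66 with GFP, 10.63, 10.66 and 10.75 with full-length MED12, 8.62, 8.90 and 9.25 with the PQL/Opa-deleted construct, and 3.63, 3.63 and 3.74 with the shRNA. Its log2 fold changes against GFP were 6.27, 4.51 and -0.75, of which the last was not called (limma, adjusted p = 0.730), although its highest shRNA array was below its lowest GFP array. Which part of MED12 the probes read is not given in the sources used here. The standard deviation of all values of an array ran from 1.34 to 1.60 and was lowest in shRNA replicate 1, GFP replicate 1 and PQL/Opa deletion replicate 1, called the narrow arrays below. Of the kidney markers in the list, all 8 were measured, between the 30.2th and 78.7th percentiles of rows, with PAX2 and SALL1 above the 75th and 2 below the 50th. The 4 measured blood markers and the 4 measured adrenal markers lay at or below the 12.2th and 44.4th percentiles, and the 7 measured neuron markers between the 7.76th and 65.4th. RBFOX3 was not among those measured. Of the 4 epithelial markers, KRT8 and EPCAM lay above the 75th percentile and 2 below the 50th, with KRT8 highest at the 96.8th. The 6 measured glia markers and the 5 fibroblast markers lay at or below the 65.6th and 65.5th. No marker of these lists was called in any comparison.

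Most of the neuronal genes read low. The mean over the 12 arrays ran from 1.91 for SCG3 to 5.33 for NEFM, 24 of the 35 lay below the median of all rows (3.43), and 12 below the 25th percentile. Probes differ in brightness, so these positions do not rank amounts of transcript between genes, and without a detection call a low row is not shown to be above background. The replicate spread of the genes was like that of other rows: the within-group standard deviation had a median of 0.25, against 0.28 over all rows.

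None of the 35 genes was called in any of the 5 comparisons made. With full-length MED12 0 of 35 were called and 0 had an unadjusted p under 0.05 (limma). Over all rows 0.0136% were called in that comparison and 2.80% had an unadjusted p under 0.05. With the replicate number as a block, 0 were called and 1 had an unadjusted p under 0.05. With the PQL/Opa-deleted construct 0 were called and 1 had an unadjusted p under 0.05, SYP (limma), where the shares of all rows were 0.00454% and 3.46%. The fit with the replicate number as a block gave 0 and 3. For the block fits the share of all rows with an unadjusted p under 0.05 is not given here. With the shRNA 0 were called and 1 had an unadjusted p under 0.05, NEFM (limma), with 0.0681% and 5.04% of all rows. Weights estimated for each array gave 10 calls with the shRNA. That fit rests largely on shRNA replicate 3, which received a weight of 8.77, and called 5702 of all rows (25.9%).

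The median log2 fold change of the genes was -0.04 with full-length MED12, -0.05 with the PQL/Opa-deleted construct and 0.04 with the shRNA, beside -0.01, -0.01 and 0.02 over all rows. Without GFP replicate 1, a narrow array, the medians of the constructs were 0.08 and 0.13. Above 0 stood 13, 14 and 23 of the 35 genes, beside 48.6%, 48.4% and 54.4% of all rows. With the shRNA that count was 16 with arrays scaled to equal SD, 19 after quantile normalization, 11 without shRNA replicate 1 and 14 without GFP replicate 3. It rose to 28 without GFP replicate 1, 27 without shRNA replicate 2 and 24 without the 3 narrow arrays. Without GFP replicate 1 the counts of the constructs were 21 and 22, and without PQL/Opa deletion replicate 1 that of the PQL/Opa-deleted construct was 8. These 3 comparisons share the GFP arrays. The 95% interval of the fold change lay within a 2-fold change in either direction (log2 of -1 to 1) for 31, 32 and 33 of the 35 genes, beside 81.0%, 81.0% and 79.5% of all rows. The exceptions were SYP, STMN3, CPLX1 and GRIN1 with full-length MED12, SYP, STMN2 and STMN3 with the PQL/Opa-deleted construct, and SYP and GRIN1 with the shRNA. For the other genes the interval left out changes of more than 2-fold and, apart from NEFM with the shRNA, held 0.

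**Figure D1:**
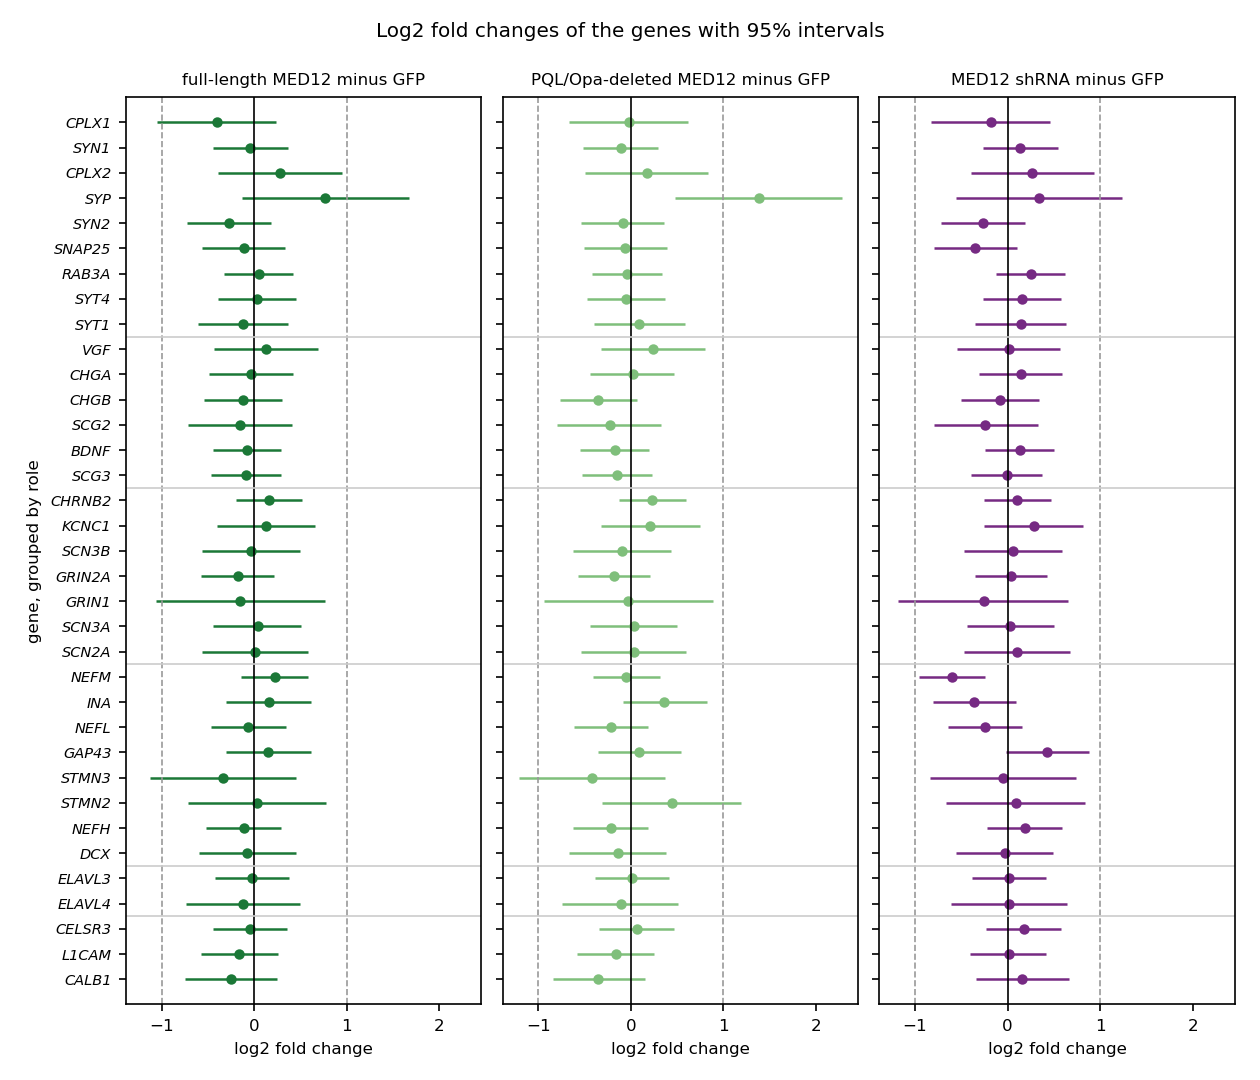
Log2 fold change (horizontal axis) of each of the 35 genes (rows, grouped by role, with grey lines between roles) in the 3 comparisons with GFP. Points are limma estimates, bars their 95% intervals, and dashed lines mark a 2-fold change. Most intervals span 0 and stay between the dashed lines; those of SYP with the PQL/Opa-deleted construct and NEFM with the shRNA do not span 0, and neither gene was called.

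The vesicle release genes were 9 of the 10 listed. SYP encodes synaptophysin, a membrane protein of synaptic vesicles. Its log2 intensity was 2.76, 2.44 and 3.81 in GFP replicates 1 to 3, 4.41, 3.40 and 3.50 with full-length MED12, 4.83, 3.94 and 4.38 with the PQL/Opa-deleted construct, and 3.29, 3.92 and 2.81 with the shRNA. All 3 arrays of the PQL/Opa-deleted construct lay above all 3 GFP arrays, by a small gap, and the other groups overlapped with GFP. The log2 fold change was 1.38 ± 0.41 (SE), from 0.48 to 2.28 (95% interval), with the PQL/Opa-deleted construct and was not called (limma, adjusted p = 1.00, unadjusted p = 0.00603). It was 0.77 ± 0.41 with full-length MED12, from 0.45 without full-length replicate 1 to 1.17 without GFP replicate 3, and 0.34 ± 0.41 with the shRNA. The within-group standard deviation of SYP, 0.58, stood beside a median of 0.25 over the genes, and its fold change with the PQL/Opa-deleted construct ran from 1.10 to 1.78 when single arrays were left out.

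SYN1, synapsin, which tethers vesicles and carries the RE1-like match shown above, read 3.97, 3.77 and 3.59 with GFP and 3.69, 3.74 and 3.79 with full-length MED12. It read 3.79, 3.66 and 3.53 with the PQL/Opa-deleted construct and 4.30, 3.66 and 3.77 with the shRNA, where the high value is that of the narrow replicate 1. All groups overlapped, and the log2 fold changes were -0.04, -0.11 and 0.13 (SE 0.19 each). CPLX1, a complexin that clamps vesicle fusion, read 4.55, 3.79 and 3.76 with GFP and 3.71, 3.61 and 3.58 with full-length MED12, and so all full-length arrays lay below all GFP arrays. The gap is small, and the fold change of -0.40 ± 0.29 (SE) moved to -0.14 without GFP replicate 1. CPLX1 read 4.56, 3.87 and 3.60 with the PQL/Opa-deleted construct and 4.33, 3.56 and 3.66 with the shRNA. In both of these groups, as with GFP, replicate 1 was the high array.

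CPLX2, the other complexin, read 4.13, 2.99 and 3.30 with GFP, 3.66, 3.70 and 3.90 with full-length MED12, 4.11, 3.04 and 3.76 with the PQL/Opa-deleted construct and 3.63, 3.72 and 3.86 with the shRNA. GFP spanned all other groups. The second row of CPLX2, with a mean of 3.11, is dimmer. Its group means were 3.18 with GFP, 2.97 with full-length MED12, 3.04 with the PQL/Opa-deleted construct and 3.24 with the shRNA. There the constructs stood below GFP, while their fold changes in the brighter row were 0.28 and 0.17. SNAP25, a SNARE protein of the fusion complex, had a log2 fold change of -0.35 ± 0.20 (SE) with the shRNA, and RAB3A, a vesicle GTPase, 0.25 ± 0.17. The 3 shRNA arrays did not overlap with GFP in either gene, below it for SNAP25 and above it for RAB3A. SYN2, SYT1 and SYT4, a synapsin and a pair of synaptotagmins that sense calcium or bind vesicle membranes, had fold changes between -0.27 and 0.16 against GFP. Of the 9 genes 4, 3 and 6 stood above 0 in the 3 comparisons.

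The 6 genes of dense-core granules and secreted factors had fold changes between -0.35 and 0.24 against GFP. VGF, a precursor of secreted neuropeptides, carries the RE1-like match at its start. It read 3.97, 3.65 and 3.68 with GFP, 3.81, 4.01 and 3.86 with full-length MED12, 4.67, 3.72 and 3.64 with the PQL/Opa-deleted construct, and 4.08, 3.58 and 3.67 with the shRNA. A single array, PQL/Opa deletion replicate 1, stood apart from the rest, and the log2 fold changes were 0.13, 0.24 and 0.01 (SE 0.26 each). CHGB, a granin that packs granule cargo, read 3.12, 2.82 and 2.70 with GFP, 2.97, 2.56 and 2.74 with full-length MED12, 2.64, 2.57 and 2.40 with the PQL/Opa-deleted construct and 3.15, 2.58 and 2.68 with the shRNA. All PQL/Opa-deleted arrays lay below all GFP arrays, with a fold change of -0.35 ± 0.19 (SE; limma, adjusted p = 1.00) that was -0.23 without GFP replicate 1. CHGA, SCG2 and SCG3, further granins, and BDNF, a neurotrophin, had fold changes between -0.24 and 0.14 against GFP. All 6 intervals lay within 2-fold in each of the 3 comparisons.

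The 7 ion channels and receptors read low, apart from CHRNB2, a nicotinic acetylcholine receptor subunit. It was at 3.49 ± 0.22 with GFP, 3.65 ± 0.10 with full-length MED12, 3.72 ± 0.22 with the PQL/Opa-deleted construct and 3.59 ± 0.10 with the shRNA (SD, n = 3). The sodium channel subunits SCN2A, SCN3A and SCN3B had fold changes between -0.10 and 0.10 against GFP, and SCN2A, a classic RE1 gene, was at 1.95 ± 0.32, 1.97 ± 0.08, 1.98 ± 0.38 and 2.05 ± 0.46 (SD, n = 3) in the same order of groups. KCNC1, a potassium channel, had 0.13, 0.21 and 0.28, and GRIN2A, an NMDA receptor subunit, -0.18, -0.18 and 0.04. GRIN1, the obligate NMDA receptor subunit, varied most among replicates, from 1.85 to 3.69 within GFP alone. None of the 7 separated from GFP in any group, beside 7.72%, 7.92% and 8.56% of all rows in the 3 comparisons.

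The cytoskeleton and growth genes held the 1 gene with an unadjusted p under 0.05 in the shRNA comparison. NEFM, the medium neurofilament chain and the brightest of the 35 rows, read 5.26, 5.53 and 5.51 with GFP, 5.60, 5.56 and 5.80 with full-length MED12, 5.25, 5.63 and 5.27 with the PQL/Opa-deleted construct, and 4.68, 4.82 and 5.01 with the shRNA. Each shRNA array read lower than the other 9 arrays, and all full-length arrays lay above all GFP arrays by a small gap. The log2 fold change was -0.60 ± 0.16 (SE), from -0.96 to -0.24 (95% interval), with the shRNA and was not called (limma, adjusted p = 0.758, unadjusted p = 0.00371, lower in 3 of 3 arrays). Leaving out single arrays gave -0.68 to -0.52, and the adjusted p over all alternatives ran from 0.00752, with array weights, to 1.00. Against full-length MED12 directly, NEFM with the shRNA had -0.82 ± 0.16 (SE; limma, adjusted p = 0.166, unadjusted p = 3.76e-04). Rows above the median had a mean shift of -0.17 in the narrow shRNA replicate 1, where NEFM was lowest, 0.08 in replicate 2 and -0.05 in replicate 3. After scaling all arrays to 1 spread NEFM was not called either (adjusted p = 0.592 against GFP).

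INA, alpha-internexin, which assembles with neurofilaments, read 3.67, 3.97 and 4.35 with GFP, 3.92, 4.18 and 4.35 with full-length MED12, 4.14, 4.62 and 4.32 with the PQL/Opa-deleted construct, and 3.48, 3.78 and 3.65 with the shRNA. The shRNA arrays were the lowest group and overlapped with GFP, and they lay below all full-length arrays. The log2 fold change with the shRNA was -0.36 ± 0.21 (SE) against GFP and -0.52 ± 0.21 against full-length MED12 (limma, adjusted p = 1.00 and 0.649). Against GFP it was -0.18 without GFP replicate 3 and -0.53 without GFP replicate 1. NEFL, the light chain, read 3.55, 3.87 and 3.90 with GFP, 3.90, 3.51 and 3.72 with full-length MED12, 3.27, 3.72 and 3.70 with the PQL/Opa-deleted construct and 3.59, 3.66 and 3.35 with the shRNA. NEFL overlapped in all groups, with -0.24 ± 0.18 (SE) for the shRNA. NEFH, the heavy chain, had 0.19 ± 0.19 with the shRNA, so the 4 intermediate filament genes did not all stand on the same side of 0.

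GAP43, a growth cone protein, read 3.64, 3.27 and 3.14 with GFP, 3.72, 3.16 and 3.64 with full-length MED12, 3.33, 3.74 and 3.25 with the PQL/Opa-deleted construct, and 3.90, 3.66 and 3.79 with the shRNA. The shRNA arrays were just above all GFP arrays, at a difference of 0.43 ± 0.21 in log2 (SE; limma, adjusted p = 0.996, unadjusted p = 0.0584). STMN2 and STMN3, stathmin-type regulators of microtubules, had wide replicate spread, with fold changes from -0.42 to 0.44 and SEs of 0.34 and 0.36. DCX, a microtubule-binding protein of migrating neurons, had -0.08, -0.14 and -0.03. The shared row 3674504, one of whose genes is TUBB3, was at 4.09 ± 0.26 with GFP and 4.33 ± 0.14, 4.17 ± 0.12 and 4.22 ± 0.08 in the other groups (SD, n = 3).

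**Figure D2:**
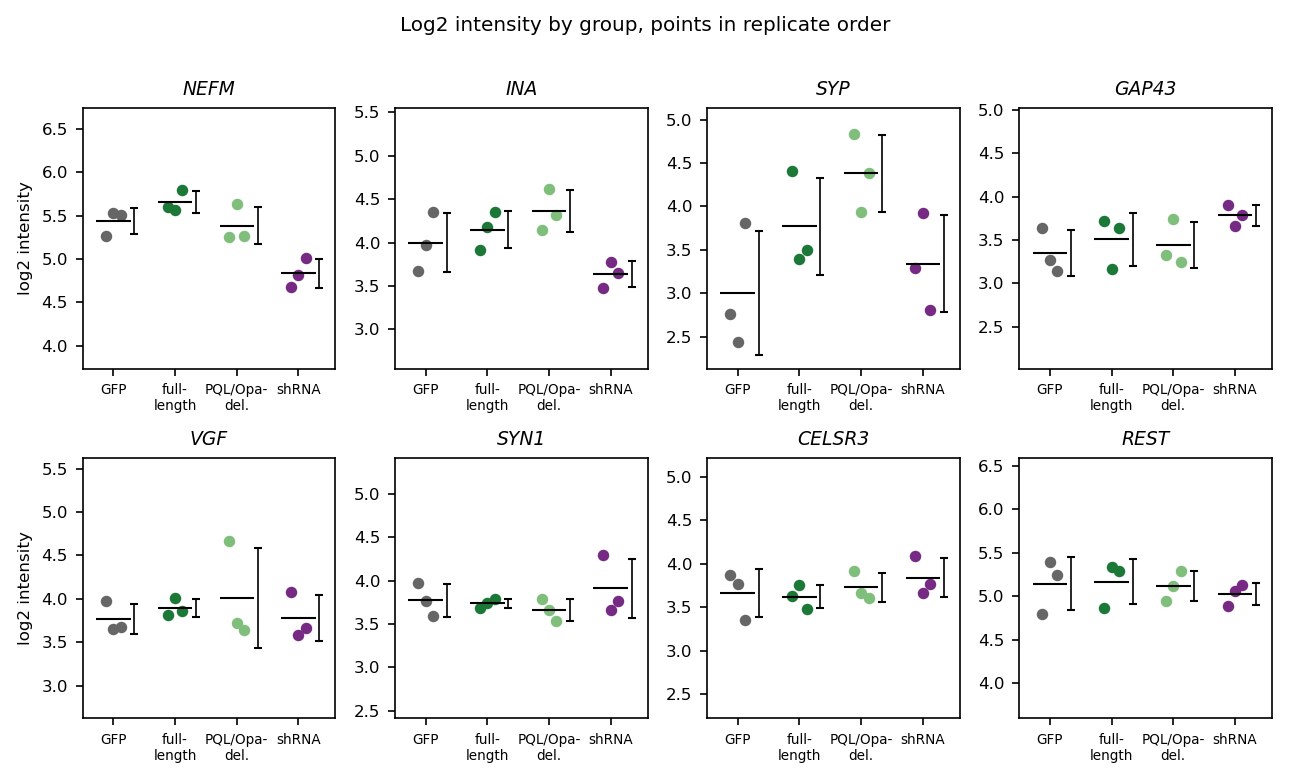
Log2 intensity (vertical axis, the same 3-unit span in each panel) of 8 genes in the 4 groups. Points are single arrays, horizontal lines group means and bars the SD of 3 arrays. NEFM is lowest in the 3 shRNA arrays (4.68 to 5.01), SYP varies widely within every group, and VGF, SYN1, CELSR3 and REST overlap between all groups.

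The RNA-binding proteins ELAVL3 and ELAVL4, which stabilise neuronal mRNAs, had fold changes between -0.12 and 0.02 against GFP. CELSR3, a cadherin that guides axons and the third gene with an RE1-like match, read 3.87, 3.77 and 3.35 with GFP, 3.63, 3.75 and 3.48 with full-length MED12, 3.92, 3.66 and 3.61 with the PQL/Opa-deleted construct, and 4.09, 3.66 and 3.77 with the shRNA. The groups overlapped, with fold changes of -0.04, 0.07 and 0.18 (SE 0.18 each). L1CAM, an axonal adhesion molecule, had -0.16, -0.16 and 0.01. CALB1, a calcium buffer, read 2.39, 1.97 and 2.18 with GFP, 1.79, 1.97 and 2.03 with full-length MED12, 2.22, 1.65 and 1.64 with the PQL/Opa-deleted construct, and 2.76, 1.98 and 2.29 with the shRNA. Its fold change of 0.41 ± 0.23 (SE) between shRNA and full-length MED12 was 0.20 without shRNA replicate 1, in which it was highest.

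Against GFP the groups did not overlap in 2 of the 35 genes with full-length MED12 (CPLX1 lower, NEFM higher). With the PQL/Opa-deleted construct this held for 3 of the 35 (SYP higher, CHGB and NEFH lower). With the shRNA it held for 4 of the 35 (SNAP25 and NEFM lower, GAP43 and RAB3A higher). Over all rows the groups did not overlap in 7.72%, 7.92% and 8.56%. Full-length and PQL/Opa-deleted MED12 were also compared directly. The MED12 row differed between the constructs as well, by 1.76 in log2 (limma, adjusted p = 0.0421). Whether its probes lie in the deleted part is not given, so transcript level, probe position and missing domains cannot be told apart. Of the genes, 0 of 35 were called and 0 had an unadjusted p under 0.05 (limma), where 0.00454% and 1.90% of all rows did. The median difference was 0.01, 18 genes stood above 0 (49.7% of all rows), and 31 of 35 intervals lay within 2-fold (82.9% of all rows). In 1 gene, SYT1, the groups did not overlap (6.91% of all rows). In the shRNA against full-length MED12, the widest contrast in MED12 level, 0 genes were called and 2 had an unadjusted p under 0.05, NEFM and INA (limma), where 0.104% and 7.17% of all rows did. There 24 genes stood above 0 (56.1% of all rows) with a median of 0.09. That count was 18 both after quantile normalization and with arrays scaled to equal SD, and 13 without shRNA replicate 1, where the median was -0.03. It was 25 without full-length replicate 1 and 25 without shRNA replicate 2, where the median was 0.20. Of the 35, 31 intervals lay within 2-fold (76.6% of all rows), and the groups did not overlap in 4, NEFM, INA and SNAP25 lower and SYT1 higher (12.1% of all rows). With array weights 4 genes were called in that comparison, as were 15.4% of all rows.

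**Figure D3:**
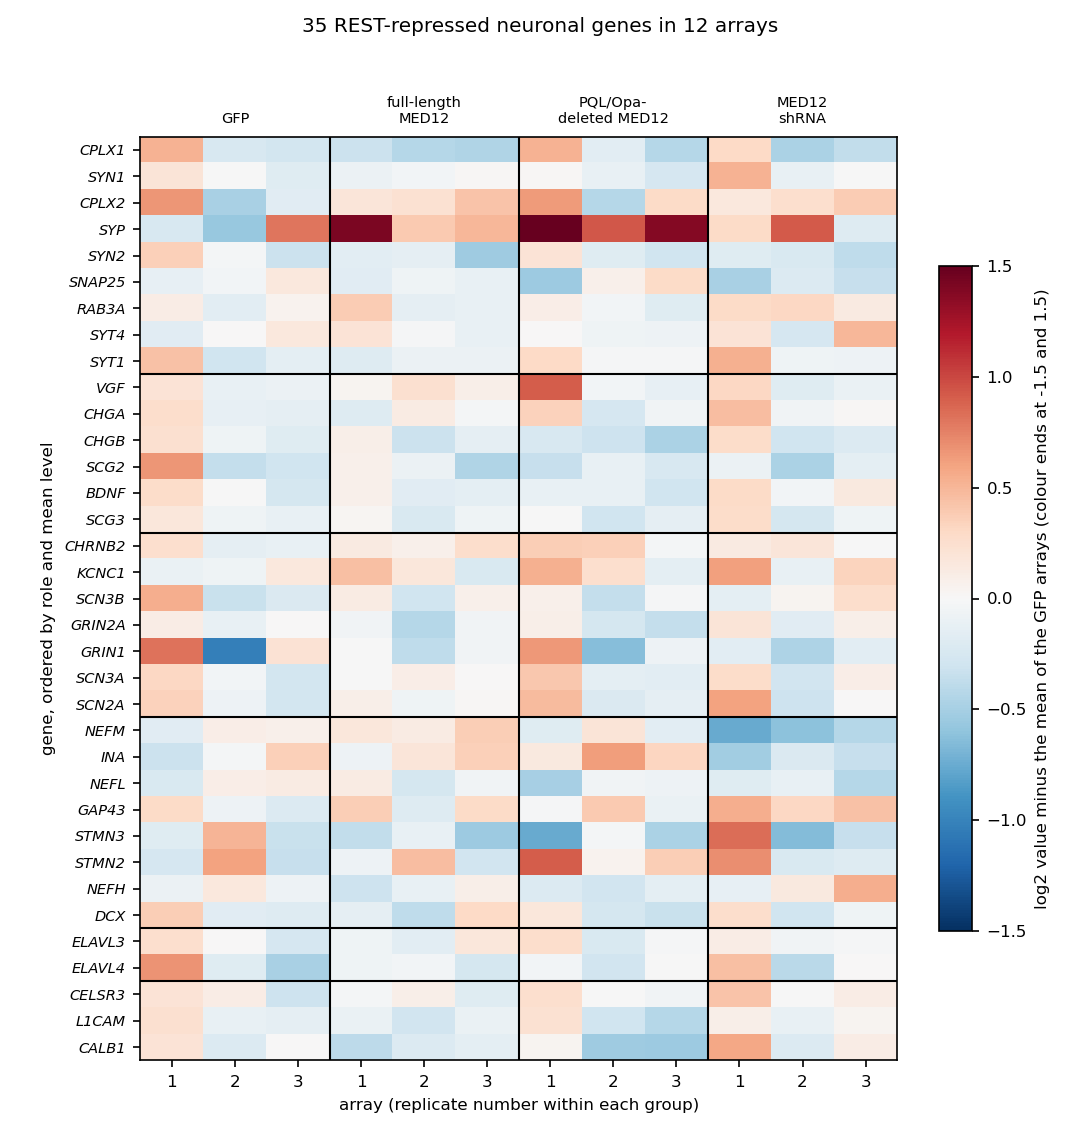
Difference in log2 value from the average GFP array (colour, with red above and blue below, ending at -1.5 and 1.5) for the 35 genes (rows, ordered by role and then by mean level) in the 12 arrays (columns, 3 per group). No group forms a block of 1 colour across the genes, replicate 1 of GFP, PQL/Opa deletion and shRNA is redder than replicates 2 and 3 in most rows, and the row of SYP is red in all arrays of both constructs.

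The dimmer genes differed together between arrays of the same group. The mean over the 24 genes below the median of all rows, relative to GFP, was 0.23, 0.10 and 0.24 in replicate 1 of GFP, PQL/Opa deletion and shRNA, the 3 narrow arrays. It was -0.03, -0.12 and -0.11 with full-length MED12, -0.09 and -0.14 in GFP replicates 2 and 3, -0.19 and -0.17 in PQL/Opa deletion replicates 2 and 3, and -0.19 and 0.01 in shRNA replicates 2 and 3. Of these 24 genes, 18 were highest in replicate 1 within GFP, 18 within the PQL/Opa-deleted group and 19 within the shRNA group, while 65.0%, 63.1% and 60.9% of all rows below the median were. In the full-length group, which holds no narrow array, replicate 1 was highest for 10. The mean of all rows below the median moved alike, at 0.18, 0.12 and 0.25 in the narrow arrays. By group, the mean over all 35 genes was 0.00 ± 0.17 with GFP, -0.02 ± 0.05 with full-length MED12, 0.00 ± 0.16 with the PQL/Opa-deleted construct and 0.02 ± 0.17 with the shRNA (SD, n = 3). The 11 brighter genes were also highest in replicate 1 of each group, at 0.12 with GFP, 0.18 with full-length MED12, 0.36 with the PQL/Opa-deleted construct and 0.11 with the shRNA. Their group means were 0.00 ± 0.12, 0.12 ± 0.07, 0.20 ± 0.15 and 0.01 ± 0.10 (SD, n = 3). The mean of all rows above the median did not move alike, at -0.11, 0.02, -0.04 and -0.17 in replicate 1 of the same groups. The part of the array spread in these values was not tested. Without the 3 narrow arrays 0 of the 35 genes were called in each of the 5 comparisons (limma; 1, 1 and 2 had an unadjusted p under 0.05 against GFP). For that fit the share of all rows with an unadjusted p under 0.05 is not given here, so these counts cannot be set against it.

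**Figure D4:**
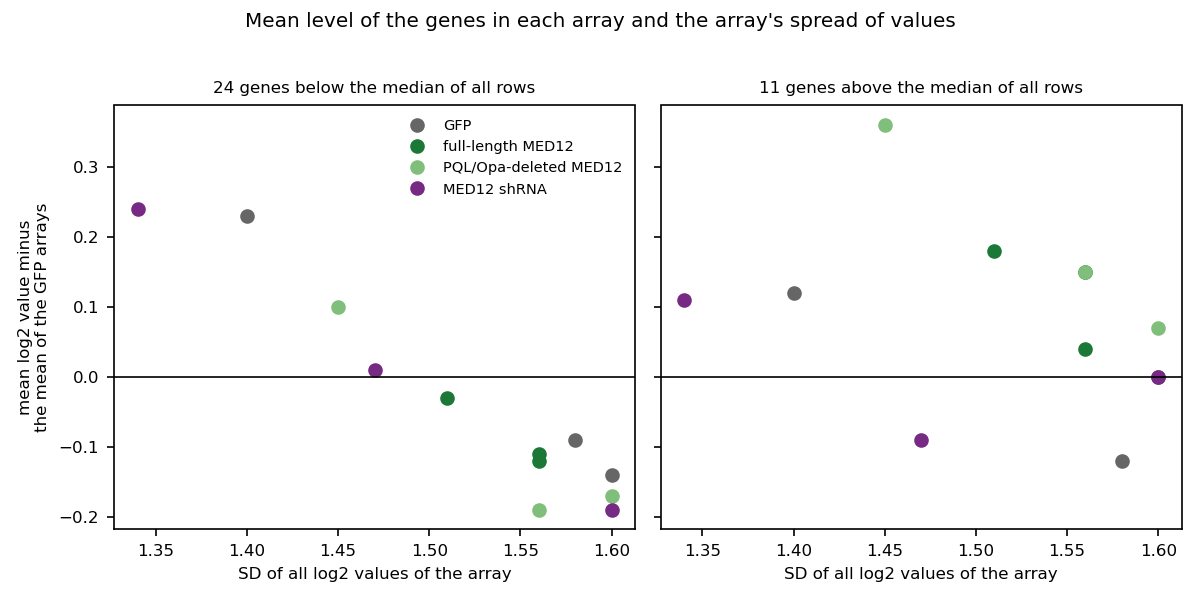
Average log2 difference of the genes from the GFP group (vertical axis) against the standard deviation of all values of the array (horizontal axis), with 1 point per array coloured by group; points of equal value lie on each other. The 24 dimmer genes (left) are highest, at 0.10 to 0.24, in the 3 arrays with the lowest standard deviation, whatever their group, and the 11 brighter genes (right) are highest in the array of lowest standard deviation within each group, at 0.12, 0.18, 0.36 and 0.11.

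Beside its targets, the pathway's own genes were measured. REST itself was 4.80, 5.39 and 5.25 with GFP, 4.87, 5.34 and 5.29 with full-length MED12, 4.94, 5.12 and 5.29 with the PQL/Opa-deleted construct and 4.89, 5.06 and 5.13 with the shRNA, with fold changes of 0.02, -0.03 and -0.12 (SE 0.20 each) and all groups overlapping. EHMT2, which encodes G9a, had -0.09, 0.06 and -0.05, and EHMT1 -0.07, -0.04 and 0.15. Of 26 genes of the REST machinery 19 were measured, and 0 were called in any comparison with GFP (limma), beside 0.0136%, 0.00454% and 0.0681% of all rows. An unadjusted p under 0.05 was found for 0, 1 and 1 of the 19, beside 2.80%, 3.46% and 5.04% of all rows. HDAC2, a deacetylase of both corepressor arms, had -0.68 ± 0.17 (SE; limma, adjusted p = 0.673) with the shRNA, its 3 arrays from 6.01 to 6.41 below the GFP arrays from 6.79 to 7.03. With the PQL/Opa-deleted construct SMARCA4, a chromatin remodelling ATPase, had 0.45 ± 0.17 (SE; limma, adjusted p = 1.00). KDM1A had -0.59 ± 0.28 (SE) with the shRNA against GFP, and these groups overlapped. In the shRNA against full-length MED12, 0 of the 19 were called (limma, smallest adjusted p = 0.506, CDYL), beside 0.104% of all rows. There 3 of the 19 had an unadjusted p under 0.05, CDYL (-0.56), HDAC2 (-0.46) and KDM1A (-0.69), all lower, beside 7.17% of all rows.

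Of 40 further neuronal genes with known RE1 elements 28 were measured, and 0 were called against GFP (limma), with medians of 0.00, -0.04 and 0.06. An unadjusted p under 0.05 was found for 1, 0 and 1 of the 28, beside 2.80%, 3.46% and 5.04% of all rows. The lowest p values were those of DISP2, a dispatched-type membrane protein, at -0.33 with full-length MED12, and TAC1, a tachykinin precursor, at -0.52 with the shRNA. HCN3 had -0.48, -0.50 and 0.49 against GFP. Its shRNA arrays lay above all GFP arrays, and its PQL/Opa-deleted arrays lay below them. The groups did not overlap with GFP in 3, 3 and 4 of the 28, beside 7.72%, 7.92% and 8.56% of all rows. With the shRNA against full-length MED12, 0 of the 28 were called (limma, smallest adjusted p = 0.340, HCN3). There 3 had an unadjusted p under 0.05, HCN3 (0.97) and SCAMP5 (0.54) higher and TAC1 (-0.53) lower, beside 7.17% of all rows. A set chosen by sequence alone, after the values of the 35 genes were seen, held the 221 other genes of the promoter table with an RE1-like match. Of these 118 were measured, and 0 were called against GFP (limma), with medians of -0.05, -0.05 and 0.02. Of the 118, an unadjusted p under 0.05 was found for 0, 4 and 5, beside 2.80%, 3.46% and 5.04% of all rows. In 9 measured genes with at most 2 mismatches, every fold change against GFP lay between -0.32 and 0.26. Among them were GRIA2, an AMPA receptor subunit whose promoter matched every fixed base, LHX3, a homeodomain factor, and RPH3A, a vesicle protein. None of the 9 separated from GFP, beside 7.72%, 7.92% and 8.56% of all rows.

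Lists outside the REST pathway had means that differed between groups. The mean over 15 interferon-stimulated genes was 1.68 ± 0.31 with the shRNA and 0.00 ± 0.10 with GFP, and that over 11 heat shock genes was 0.69 ± 0.06 with full-length MED12 and 0.00 ± 0.11 with GFP (SD, n = 3). The interferon mean was also 0.31 ± 0.07 with full-length MED12 and 0.56 ± 0.16 with the PQL/Opa-deleted construct. The heat shock mean was 0.23 ± 0.04 with the PQL/Opa-deleted construct and -0.32 ± 0.04 with the shRNA. Of the interferon-stimulated genes 7 of 15 were called with the shRNA (limma), where 0.0681% of all rows were. Of the heat shock genes 0 of 11 were called with full-length MED12 (limma, smallest adjusted p = 0.0664), and 7 had an unadjusted p under 0.05. Over all rows the shares with full-length MED12 were 0.0136% and 2.80%. The part of either list in the values of the neuronal genes was not tested, and both lists were chosen with earlier results of these data known. In these bulk samples, a difference in the number of cells with a transcript and a difference in transcript per cell cannot be told apart.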

How the data were processed

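The deposited file holds 1 log2 intensity per row (transcript cluster) and array, and the authors made these log2 values with Partek and RMA on genome build hg18, per the submitters' processing notes. The sources used here do not give version, probe set level, background option or filters. The values were used as deposited, and 0 columns were left out. Gene names came from the platform annotation: 14432 rows had 1 symbol, 2408 several and 5171 none, and 14404 of the first were found by Entrez identifier in RefSeq. Differences between the 4 groups were estimated over all rows and 12 arrays by limma 3.58.1 under R 4.3.3 (lmFit then eBayes; 8 residual and 3.52 prior degrees of freedom). Tests were two-sided, p-values were adjusted by Benjamini-Hochberg across the 22011 rows, and the script was tested on simulated data. Intervals at 95% use the moderated SE and are not adjusted for the number of genes. Precision is limited by how many arrays there are: the median SE of a log2 fold change was 0.21 for the genes described and 0.23 for all rows. With 3 arrays on each side the smallest exact permutation p is 0.1, so none was run.

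The genes, lists and comparisons were chosen with earlier results of these data known. All listed genes are accounted for; values in every array are given for the 8 brightest genes and for the 3 with the smallest p in each of the 5 comparisons. Deviations of same-numbered arrays from their group means correlated over 0.1 for each number between GFP and full-length MED12 (0.101 to 0.229), and between GFP and PQL/Opa-deleted MED12 (0.149 to 0.472), so a fit with the replicate number as a block is given there; the labels do not say what a number marks. The alternatives were quantile normalization, arrays scaled to equal SD, rows above the median only, only the 2 groups compared, the replicate block, array weights, eBayes with trend or robust, the mean of a gene's rows, and each array left out. Leaving out the 3 narrow arrays was added after seeing the data.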

Additional observations from a re-analysis of the deposited data

How the results depend on the processing

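Of 952 values under alternatives, 881 kept their direction and side of the threshold or stayed within 1 SD or 1.5 times, 66 moved and 5 passed the threshold that they had missed. The 5 were all with array weights: with the shRNA against GFP, NEFM at -0.52, GAP43 at 0.52 and INA at -0.37, and against full-length MED12, NEFM at -0.68 and INA at -0.52. Array weights called 10 of the 35 genes with the shRNA against GFP and 4 against full-length MED12, and 0 genes were called in these comparisons under the other alternatives. The weights gave shRNA replicate 3 8.77 and the narrow arrays 0.287 to 0.306; they called 6, 20, 5702, 4 and 3383 rows with full-length MED12, the PQL/Opa-deleted construct and the shRNA against GFP, full-length against PQL/Opa-deleted MED12 and the shRNA against full-length MED12, beside 3, 1, 15, 1 and 23. Genes with an unadjusted p under 0.05 were then 3, 7 and 14 against GFP and 8 in the last comparison. The share of all rows under that cut with array weights is not given here, so these counts cannot be set against it.

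Rows called with the shRNA against GFP were 23 after quantile normalization and 4 with only the 2 groups compared, and against full-length MED12 37 and 2. Between the constructs they were 2 after quantile normalization, 3 with equal SD, 2 in rows above the median, and 0 with trend and without the narrow arrays. Genes with an unadjusted p under 0.05 were 2 after quantile normalization for the PQL/Opa-deleted construct and for the shRNA, 2 with equal SD for the former, and 1 and 2 without the narrow arrays for full-length MED12 and the shRNA. The shares of all rows under that cut in these fits are not given here. The median fold change of the genes was 0.15 in rows above the median and 0.08 without the narrow arrays for full-length MED12, and -0.06 in rows above the median for the shRNA against full-length MED12. With the replicate number as a block, genes with an unadjusted p under 0.05 were 1, 3 and 2 against GFP. The share of all rows under that cut with the block is not given here. Rows called with the block were 2 for the PQL/Opa-deleted construct and 38 for the shRNA against full-length MED12. Of the 35 genes, 0 were called with the block. The other 3 comparisons did not pass the same check of over 0.1 at each number. For the shRNA against GFP only replicate 3 fell short, with correlations of 0.464, 0.269 and 0.0223 for replicates 1 to 3. In that comparison the block gave NEFM an adjusted p of 0.296 (limma).

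Leaving out 1 array at a time, rows called ran from 3 to 4 and from 1 to 1 for the constructs against GFP, from 5 (without GFP replicate 2) to 20 (without shRNA replicate 1) for the shRNA, from 0 to 3 between the constructs, and from 9 (without full-length replicate 1) to 39 (without shRNA replicate 2) for the shRNA against full-length MED12. Genes with an unadjusted p under 0.05 ran from 0 to 1, 1 to 2, 1 to 3, 0 to 1 and 1 to 3 in that order. The shares of all rows under that cut without single arrays are not given here. The median fold change ran from -0.14 to 0.08, -0.15 to 0.13, -0.06 to 0.15, -0.06 to 0.10 and -0.03 to 0.20, with 0.08 and 0.13 without GFP replicate 1, and -0.06 and -0.03 without shRNA replicate 1. The sign of the genes' median thus turned in each of the 5 comparisons when single arrays were left out. The causes were not tested. Most of the genes read low without a detection call, which limits what a missing difference shows.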
